A study of Homo sapiens with 3 samples.

Results

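The fatty acid oxidation genes described here are 8 human genes that code for enzymes of the mitochondrial and peroxisomal breakdown of fatty acids: CPT1A, CPT2, ACADM, ACADVL, HADHA, HADHB, ACAA1 and ACAA2. They were chosen by name from 20037 coding genes, and their peaks are those of the deposited list whose centre lies in the gene's span in NCBI RefSeq on GRCh38.p14, the same coordinates as the hg38 of the files. By this rule they held 28 of the 21031 peaks. The series was an eCLIP experiment, a method that fixes RNA to bound protein with UV light, pulls the protein down and sequences the attached fragments. It used LS174T, a line of human colon adenocarcinoma cells, transfected for 24 h with mouse Pxr (gene Nr1i2, the pregnane X receptor) fused to an HA tag. The labels give 1 input library and 2 replicates of the PXR immunoprecipitate. All 3 came from transfected cells irradiated at 254 nm with 400 mJ/cm2, and no untransfected group is described. The protocol lists antibodies to PXR, HA and IgG without saying which served for which library. The cells also carry their own human receptor gene, NR1I2. The series gives 1 peak list, named for the immunoprecipitate, with no values of single libraries. Which of the libraries went into it is not given. No value below therefore has a replicate error, and no test between groups was possible.

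Long-chain fatty acids enter mitochondria as carnitine esters, made at the outer membrane by CPT1A and turned back into acyl-CoA inside by CPT2. In the matrix each round of β-oxidation removes a short carbon unit by a dehydrogenation, a hydration, a second dehydrogenation and a thiolytic cleavage. The colon epithelium is known to use fatty acids, above all butyrate from gut bacteria, as a main fuel. PXR is known as a nuclear receptor that senses drugs and bile acids and, in liver, also affects lipid metabolism.

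Each peak is described by the authors' fold, the ratio of reads at its summit to a local background, and by the number of reads at the summit. That number was recovered from the deposited fold and −log10 p, and its exact Poisson interval at 95% covers counting error only, since PCR copies are not independent molecules. The background multiplied by 50 gave a whole number of reads in 10 kb, within 0.05, for all 28 peaks. The fold of each of these peaks thus compares its summit with the 10 kb around it. Whether the background reads came from the immunoprecipitate or from the input is not given. In none of the 28 peaks did the 10 kb hold fewer reads than the summit. At a PPARA peak described below both held 21. Whether the background counts the summit's own reads was not tested, so the folds cannot be taken as corrected for the input. Of 16 colon epithelial markers 15 held a peak, and of 12 hepatocyte and 12 blood and immune markers none did. Among 12 fibroblast and endothelial markers COL1A2, ACTA2 and TAGLN held one, with at most 21 reads, against up to 1147 reads in the epithelial list.

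Several peaks lie at or near an annotated gene start, and the stretches printed here are the start regions concerned. HADHA and HADHB, which code for the α and β subunits of the mitochondrial trifunctional protein, lie head to head with 306 bases between them. The RefSeq windows of 250 bases before to 50 after their starts share 194 bases. In the HADHA stretch at chr2:26244603-26244882 (GRCh38.p14, minus strand, ending at most 30 bases after the start) capitals mark the bases shared with the HADHB window, and the HADHA peak lies beyond the end of this stretch. In the ACAA2 stretch at chr18:49813504-49813783 (minus strand) capitals mark the bases under its peak. The CPT2 stretch at chr1:53196844-53196873 and the ACADVL stretch at chr17:7219958-7219987, both on the plus strand, are the last 30 bases of their windows, with the peak in capitals.
HADHA: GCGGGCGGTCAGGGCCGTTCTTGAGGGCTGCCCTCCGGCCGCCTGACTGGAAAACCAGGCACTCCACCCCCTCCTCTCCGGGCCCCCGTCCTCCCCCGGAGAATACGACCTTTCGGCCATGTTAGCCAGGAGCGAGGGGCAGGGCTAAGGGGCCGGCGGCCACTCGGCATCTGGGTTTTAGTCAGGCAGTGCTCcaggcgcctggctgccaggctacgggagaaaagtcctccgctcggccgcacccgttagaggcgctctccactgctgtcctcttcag
ACAA2: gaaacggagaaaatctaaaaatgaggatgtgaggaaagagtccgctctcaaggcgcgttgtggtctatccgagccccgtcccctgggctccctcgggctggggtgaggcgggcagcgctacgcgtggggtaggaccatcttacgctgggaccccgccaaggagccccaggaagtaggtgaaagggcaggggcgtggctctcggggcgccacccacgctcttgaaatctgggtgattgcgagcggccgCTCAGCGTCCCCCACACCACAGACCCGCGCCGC
CPT2: ctgacgcagtgTCTTGGGCGCTAACGGCGG
ACADVL: gccagcggcgcccggagagattcggagATG
The ACAA2 peak began 3 bases before the annotated start, the CPT2 peak 31 bases after it and the HADHA peak 78 bases after it. ACADVL has 2 start windows in the table, and its first peak began 47 bases after the inner start. Of the 8 members 7 had a window, 8 windows in all. The hexamers AGGTCA and AGTTCA, from which binding sites of PXR and PPARA are built, were searched on both strands and were found in none of these 8 windows. Of 22199 windows of coding genes, 11.9% held AGGTCA and 8.66% held AGTTCA. The GC box GGGCGG, searched on both strands, was in 5 of the 8 windows, with at most 4 in a window, against 56.3% of all windows. The HADHA and HADHB windows overlap and are not independent. The GC content of the 8 windows lay on both sides of the median of all windows, 62.3%, from 50% in CPT1A and 52.7% at the outer ACADVL start to 68.7% in ACADM.

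All 8 genes held at least 1 peak, where 41.6% of coding genes did, and ACADVL had by far the deepest. Among coding genes as long as the members, from 8142 to 89658 bases, 44.9% held a peak. The comparison does not take expression into account, and binding by PXR and abundance of an RNA cannot be told apart in it. The members were also chosen with earlier results of these data known, so the counts here are a description and not a test of enrichment. ACADVL held 7 peaks, CPT1A 6, HADHA 5, ACAA1 3, CPT2, ACADM and ACAA2 2 each, and HADHB 1. Of the 8 genes 7 held 2 peaks or more and 3 held 5 or more, against 58.6% and 10.9% of the 8329 coding genes with a peak. Summit reads of the 28 peaks ran from 6 to 218 with a median of 23, beside a median of 22 over all peaks in coding genes. The fold ran from 2.48 to 11.2 with a median of 6.22, beside 5.93. In both measures the members' medians thus lay near those of coding genes. With only peaks in no other gene counted, 7 of the 8 genes held a peak, against 35.8% of coding genes. With the peaks limited to a −log10 q no lower than the list's median of 9.14, 6 did, against 25.9%, and CPT2 stayed above that line while HADHB and ACAA2 did not. On the gene's own strand 6 of the 7 genes with a listed strand held a peak, against 41.5%, and the same 6 did with no other gene on that strand, against 38.9%. With at least 10 reads, or with peaks over 2 bases wider than the narrowest, all 8 did, against 37.2% and 37.3%. By the summit or by any overlap of 1 base all 8 did, against 41.6% and 42%.

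**Figure D1:**
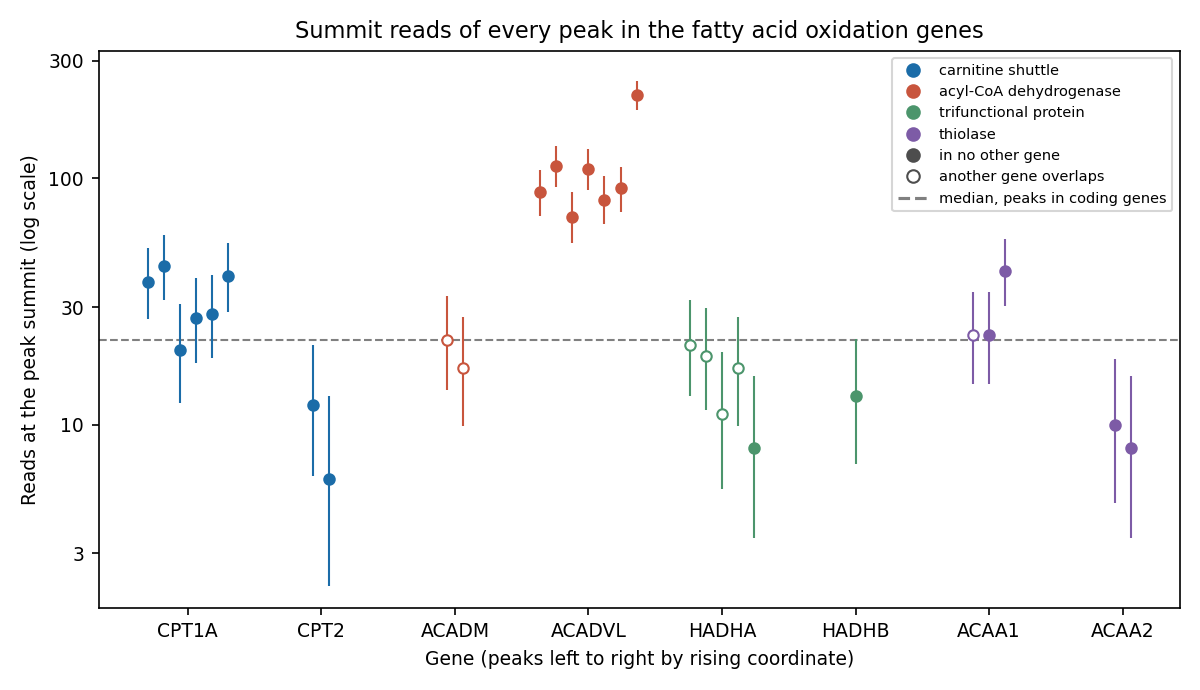
Reads at the summit (log scale) of each of the 28 peaks, by gene, with exact Poisson 95% intervals; open points lie where another gene overlaps, and the dashed line is the median of 22 reads over peaks in coding genes. All 7 ACADVL peaks lie above the peaks of the other genes, and all those of CPT2, HADHA, HADHB and ACAA2 lie below the line.

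Among the carnitine palmitoyltransferases, CPT1A, the rate-limiting enzyme that makes acylcarnitine, had deeper peaks than CPT2, the enzyme of the inner membrane that reverses it. CPT1A (gene ID 1374, chr11:68754620-68844277) held its 6 peaks in no other gene and on its own, minus strand. In order of rising coordinate their summits held 38, 44, 20, 27, 28 and 40 reads. The deepest, at chr11:68757147-68757488, had 44 reads (Poisson interval 32.0 to 59.1) and a fold of 6.62. It and the peak of 38 reads, 881 bases wide and the widest of all 28, were 230 bases apart, with centres 2698 and 1856 bases from the downstream end of the gene. The other 4 lay in the inner part, between 36789 and 68973 bases from the start, and no CPT1A peak lay nearer to the start than that. Exons were not used here, so whether these 4 lie in introns is not given. The highest fold of the gene, 7.88, belonged to the peak of 40 reads nearest to the start.

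CPT2 (gene ID 1376, chr1:53196824-53214197) held 2 peaks, also in no other gene and on its own, plus strand. The first, at chr1:53196855-53197148, had 12 reads (6.20 to 21.0) beside a 10 kb background of 16 reads, which gave it a fold of 9.85. The second, at chr1:53202357-53202556, had 6 reads (2.20 to 13.1), the fewest of all 28 peaks. It was 200 bases wide, the narrowest width in the list. If that width is the caller's extended read length, the reads of such a peak start at nearly 1 position. The deepest summit of CPT1A held 3.67 times the reads of that of CPT2, with intervals that did not overlap. By fold the order was the opposite, 7.88 for CPT1A and 9.85 for CPT2, beside 10 kb backgrounds of 125 to 290 reads at CPT1A and 15 to 16 at CPT2.

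Of the acyl-CoA dehydrogenases, which carry out the first step on chains of different length, ACADVL acts on very long chains and ACADM on medium ones. ACADVL (gene ID 37, chr17:7217125-7225266) is the shortest of the 8 genes, at 8142 bases, and its peaks were the deepest. Its 7 peaks, on its own plus strand and in no other gene, held 88, 112, 70, 109, 82, 91 and 218 reads from the first to the last. They lay within 5399 bases and covered 27.1% of the gene, or 8.60 peaks per 10 kb, against a median of 0.616 in coding genes with a peak. At least 7 peaks were held by 4% of coding genes with a peak. The peak of 218 reads (190 to 249), at chr17:7224968-7225383, had its centre 90 bases before the downstream end and reached 117 bases past it. Its fold was 8.25, and its interval lay above those of the gene's other 6 summits, which ran from 54.6 to 135. Among 8329 coding genes ranked by their deepest summit ACADVL came 93rd, above 98.9% of them.

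The folds of the other 6 ACADVL peaks ran from 2.48 to 3.94. Together with an ACAA1 peak at 3.92 they were the 7 lowest of the 28. The 10 kb backgrounds of the ACADVL summits were 1267 to 1384 reads, above those of all other members' peaks, where the most was 290. The gene is shorter than 10 kb, so each of these windows also spanned other ACADVL peaks. The windows touched DLG4, MIR324 and DVL2 as well. What share of the reads came from the gene's own peaks or from these neighbours was not tested. By highest fold in place of reads, ACADVL lay above 60.4% of coding genes with a peak. At 1219 reads summed over the 28 summits, ACADVL held 770, or 63.2%. Summits that lie close together may share reads, so these sums may not count separate reads.

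ACADM (gene ID 34, chr1:75724709-75763679) held 2 peaks, neither of them on its own strand. They lay at chr1:75743431-75743822 with 22 reads (13.8 to 33.3) and a fold of 10.3, and at chr1:75744449-75744708 with 17 reads (9.90 to 27.2) and a fold of 8.04. Both were on the minus strand, while ACADM is on the plus strand. Both had their centres inside the pseudogene DLSTP1, 3012 bases long, and 626 bases separated them. No peak centre lay in the rest of ACADM. DLSTP1 is named as a copy of DLST, the gene on chromosome 14 for a subunit of the 2-oxoglutarate dehydrogenase complex, and DLST held 3 peaks of its own with 23, 28 and 34 reads on its plus strand. Reads of such copies can be split between them in alignment, which was not tested here. The strand of DLSTP1 is not listed, and the origin of the ACADM reads is uncertain. DLSTP1 and DLST were picked out after their values were seen. Counting peaks in no other gene, ACADM had none.

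The subunits of the trifunctional protein, which carries out the last 3 steps on long chains, had no summit above the coding median of 22 reads. HADHA (gene ID 3030, chr2:26190635-26244632), for the α subunit with the hydratase and hydroxyacyl-CoA dehydrogenase activities, held 5 peaks on its own minus strand. By rising coordinate they had 21, 19, 11, 17 and 8 reads. The first 4 lay where GAREM2 overlaps HADHA from the other side, and GAREM2 is on the plus strand, the opposite of these peaks. The deepest, at chr2:26190803-26191279, held 21 reads (13.0 to 32.1) at a fold of 6.88, 406 bases from the downstream end of HADHA. The highest fold, 9.78, was at chr2:26203973-26204181 with 17 reads. The peak of 8 reads (3.45 to 15.8), at chr2:26244355-26244554, was the only 1 in HADHA alone, with its centre 177 bases from the start.

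HADHB (gene ID 3032, chr2:26244939-26290465), for the β subunit with the thiolase activity, held 1 peak, on its own plus strand and in no other gene. It lay at chr2:26279156-26279383, 34331 bases from the start, with 13 reads (6.92 to 22.2) and a fold of 7.45. The deepest summit of HADHA held 1.62 times the reads of the HADHB summit, and their intervals overlapped. At these depths a difference between the subunits was not detectable. HADHB had no peak near its start, where HADHA had one. A gene region without a peak may be too shallow, so its absence is not read as a lack of RNA.

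The thiolases, which cleave the shortened chain, differed in depth. ACAA1 (gene ID 30, chr3:38122715-38137127), the peroxisomal enzyme, held 3 peaks on the minus strand with 23, 23 and 42 reads by rising coordinate. The deepest, at chr3:38136720-38137065, had 42 reads (30.3 to 56.8) and a fold of 11.2, the highest of all 28, with its centre 234 bases from the end of the span with the higher coordinate. The first, at chr3:38122743-38123027, lay 170 bases from the other end, where DLEC1, a gene on the plus strand, overlaps. Both shallower peaks had folds of 3.92 and 3.97 beside 10 kb backgrounds of 252 to 256 reads, and the deepest had a background of 142 reads.

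ACAA2 (gene ID 10449, chr18:49782164-49813533), the mitochondrial enzyme, held 2 peaks on its own minus strand and in no other gene. One, at chr18:49802573-49802814, had 10 reads (4.80 to 18.4) at a fold of 6.88. The other, at the start of the gene as shown by its sequence above, had 8 reads (3.45 to 15.8) at a fold of 5.23, the lowest significance of all 28 with a −log10 q of 3.98. The deepest summit of ACAA1 held 4.20 times the reads of that of ACAA2, with intervals that did not overlap. Both peroxisomal and mitochondrial thiolases thus had a peak at an end of the gene, which for ACAA2 was the start.

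**Figure D2:**
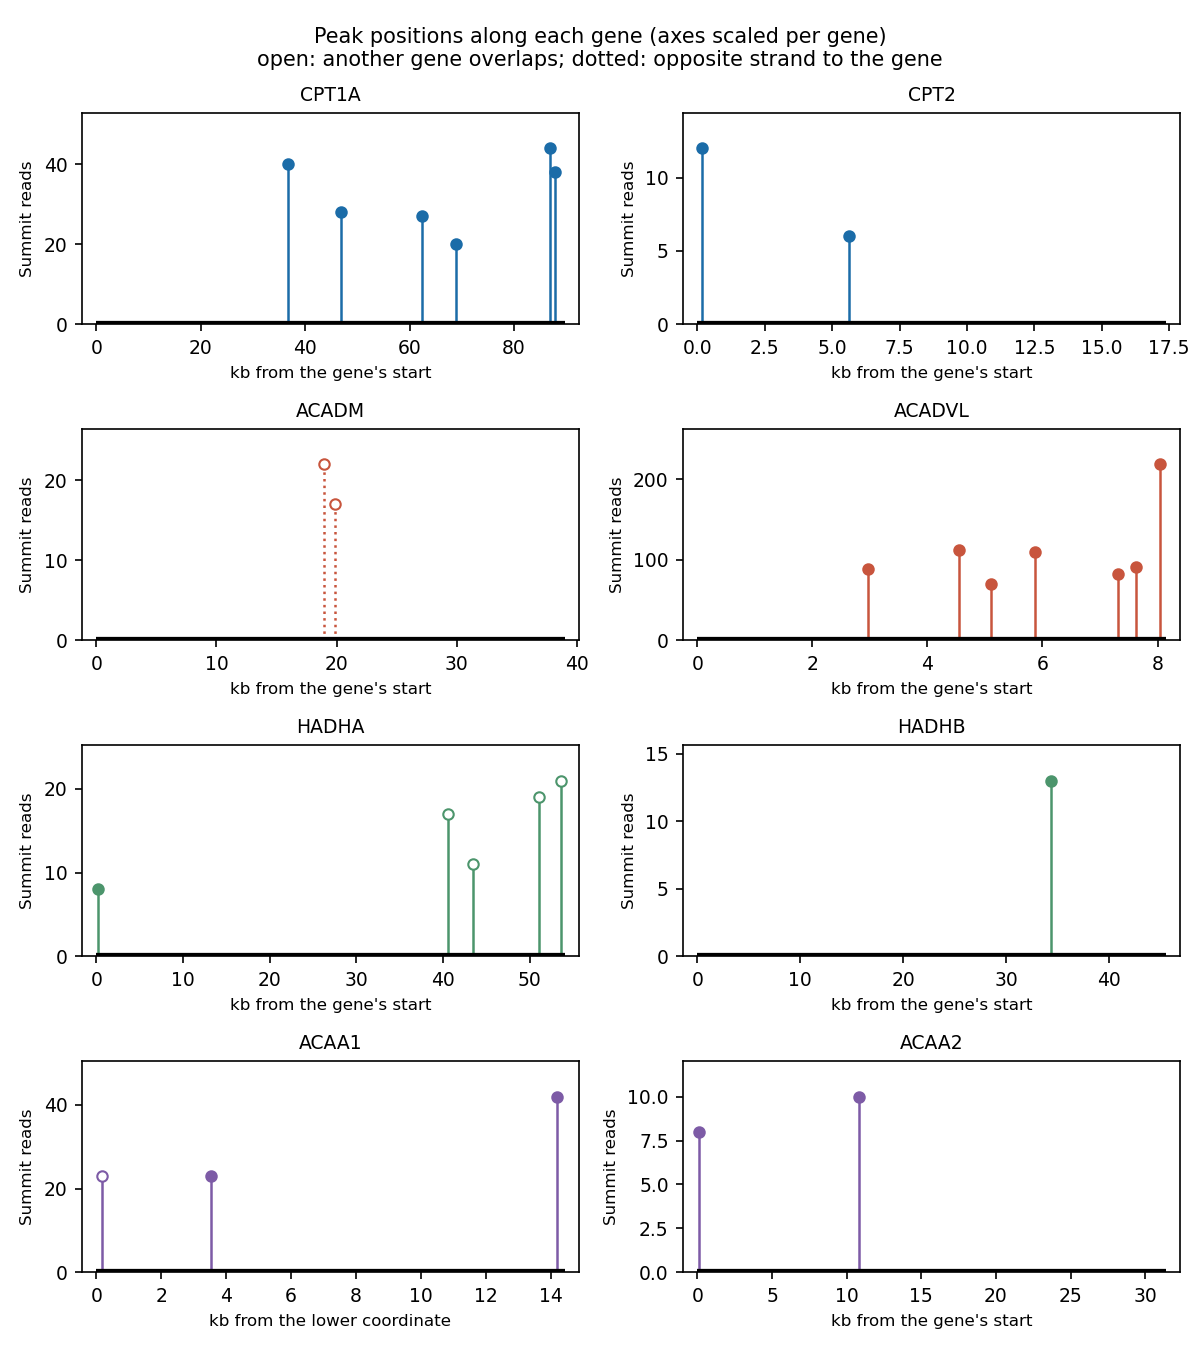
Peak centres along each of the 8 genes in kb from the annotated start (for ACAA1 from the lower coordinate), against reads at the summit; the black bar is the gene span, open points lie where another gene overlaps, and dotted lines mark peaks on the strand opposite to the gene. CPT2, HADHA and ACAA2 have a peak at the start, ACADVL has its deepest at the downstream end, and both ACADM peaks are on the opposite strand.

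In order of their deepest summit the genes were ACADVL with 218 reads, CPT1A with 44, ACAA1 with 42, ACADM with 22, HADHA with 21, HADHB with 13, CPT2 with 12 and ACAA2 with 10. A summit is the same short length in every gene, but the deepest was taken over 1 peak in HADHB and up to 7 in ACADVL. The order is thus a description only. Only ACADVL was separated from its neighbour in this order by intervals that did not overlap. From CPT1A down, the intervals of each pair of neighbours overlapped. ACADVL, CPT1A, ACAA1 and ACADM lay at or above the median deepest summit of coding genes with a peak, which was 22 reads. CPT1A lay above 81.2% of these genes, ACAA1 above 79.5%, ACADM above 49.6% and HADHA above 47.2%. HADHB lay above 21.3%, CPT2 above 17.5% and ACAA2 above 10.5%. With only peaks in no other gene, ACADM left the order and HADHA, then at 8 reads, lay above 4.32% and below HADHB, CPT2 and ACAA2. The median over the 8 genes was 21.5 reads.

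**Figure D3:**
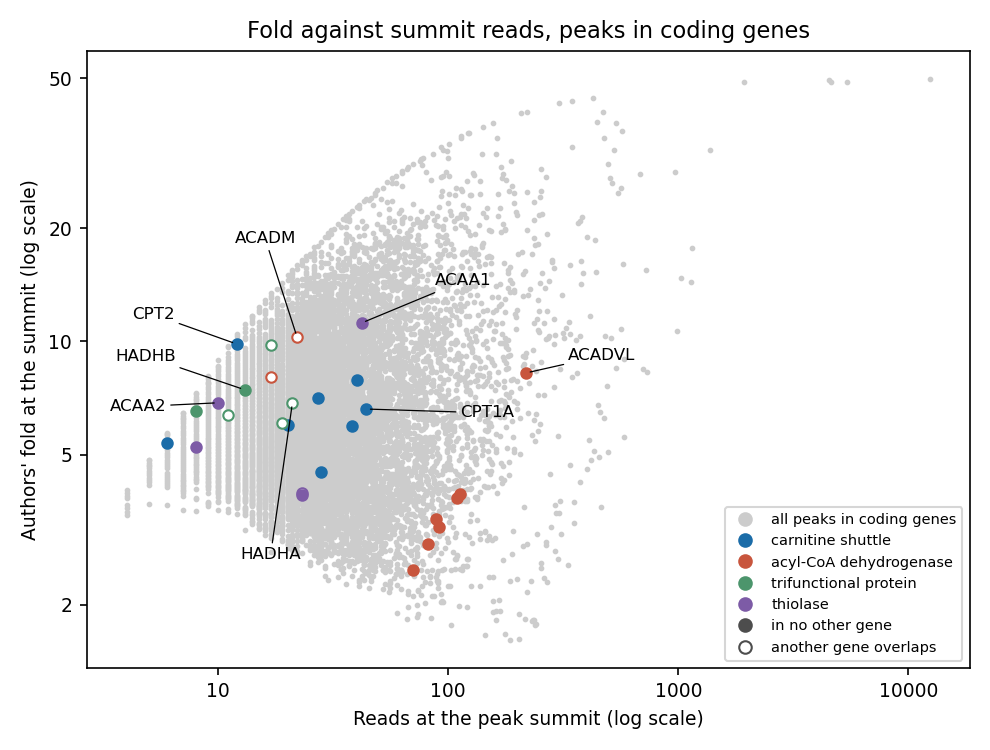
The authors' fold against reads at the summit, both on log scales, for the 28 peaks of the 8 genes (coloured by role, open where another gene overlaps) over all peaks in coding genes (grey); each name marks the gene's deepest peak. Of the 7 ACADVL peaks 6 combine many reads with folds under 4, and CPT2 combines 12 reads with a fold of 9.85.

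The peaks lay mostly on the strand of the gene. The strand was listed for 7 of the 8 genes, and of their 25 peaks 23 were on it (92.0%), all but those of ACADM. Peaks of the same gene are not independent, and no share over all coding genes was computed with overlapped peaks included. Of the 19 peaks in no other gene, 19 were on the gene's strand, where 98.4% of all such peaks in coding genes were. Another gene overlapped 7 of the 28 peaks (25.0%), against 12.4% of peaks in coding genes, and these were 4 in HADHA, 2 in ACADM and 1 in ACAA1. Of the 19 peaks on the strand of their only gene, 3 (15.8%) had centres within 500 bases of the start, against 19.9% over all coding genes. Distances were taken from the outermost start, so the ACADVL peak at the inner start is not among the 3. Within 500 bases of the downstream end lay 1 (5.26%), at ACADVL, against 9.32%. Peaks at most 2 bases wider than the narrowest numbered 5 of 28 (17.9%), against 19.2% of all 20919 peaks on chromosomes 1 to 22, X and Y. The 2 position shares rest on 3 peaks and 1 peak, too few to say whether they differ from those of the list. The share of such narrow peaks lay near that of the list, while the median width was 234 bases, against 263 over all peaks.

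The other genes of the pathway, 44 in all, were grouped by role, and 28 held a peak (63.6%), against 41.6% of coding genes. This list too was chosen with earlier results of these data known, and expression is not taken into account, so the share is a description only. The 28 genes with a peak had a median deepest summit of 16.5 reads, from 5 to 60, and 6 of them reached the coding median of 22. Of 6 hydratases, isomerases and hydroxyacyl-CoA dehydrogenases, 5 held a peak. ECI1, an isomerase for unsaturated chains, was deepest with 60 reads (45.8 to 77.2) at a fold of 6.79. Its other summits held 57 and 55 reads. ECH1 reached 59 reads where another gene overlaps, and ECHS1, the short-chain hydratase, reached 56. These last 2 were picked out after their values were seen. The interval of the ECI1 summit lay below that of ACADVL and overlapped that of CPT1A.

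The electron transfer flavoprotein takes electrons from the dehydrogenases, and all 3 of its genes, ETFA, ETFB and ETFDH, held peaks. ETFB was deepest, with 5 peaks of 31, 29, 31, 33 and 16 reads on its minus strand. Of 5 genes of fatty acid activation 4 held a peak, led by ACSL3, an acyl-CoA synthetase, with 35 reads (24.4 to 48.7) at a fold of 13.7, with its centre 203 bases from the start. Of 5 further carnitine shuttle genes 3 held a peak, with at most 16 reads, at CRAT, the carnitine acetyltransferase. The only peak of SLC25A20, the carnitine carrier, had 5 reads (1.62 to 11.7) and lay on the strand opposite to the gene. It was picked out after its values were seen.

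Of 5 further acyl-CoA dehydrogenase genes 2 held a peak, and ACAD9 was deepest with 17 reads (9.90 to 27.2) at a fold of 3.44. Of 5 genes for thiolases and ketone bodies 3 did. Of 9 peroxisomal genes 5 did, and HSD17B4, the bifunctional enzyme, was deepest with 19 reads. Of 6 regulators 3 did. PPARA, the receptor that switches on these genes in liver, held 1 peak of 18 reads on its own strand. Its other peak, of 21 reads (13.0 to 32.1), lay on the opposite strand. That peak was 201 bases wide, and its 10 kb background was also 21 reads. PPARGC1A, the coactivator of PPARA, held none. Of the 53 peaks of the wider list in genes with a listed strand, 51 were on it, and the other 2 were those of SLC25A20 and PPARA. Over all peaks in 1 coding gene only, 98.4% were on its strand. That share leaves out overlapped peaks, which the 53 include at ACSL5 and OXCT1.

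**Figure D4:**
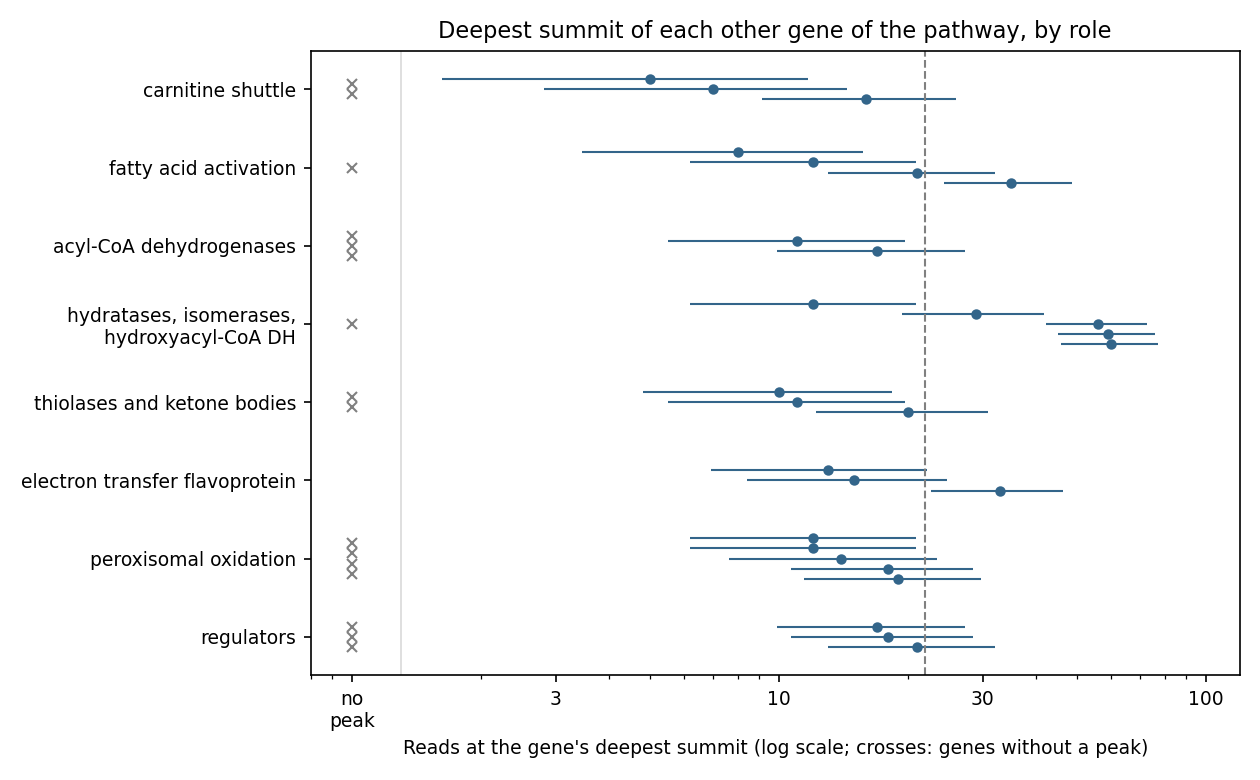
Reads at the deepest summit (log scale) of each of the 44 other genes of the pathway, by role, with exact Poisson 95% intervals; crosses at the left are the 16 genes without a peak, and the dashed line is the median of 22 reads over coding genes with a peak. The 3 deepest, at 56 to 60 reads, are all hydratases and isomerases.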

How the data were processed

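The data were 1 list of 21031 peaks in 10 columns. Cutadapt, BWA, MACS2 and the hg38 build are named, per the submitters' processing notes, with no versions or settings. The deposited peak names show that the strands were called apart; whether both immunoprecipitate replicates were pooled and whether the input served as control is not given. The sources used here give no library totals either, so depth was read from each summit. The deposited fold is the authors' ratio of summit to background, after adding 1 to both. Columns with the authors' −log10 p and −log10 q hold the caller's significance. The deposited score equalled the integer part of 10 times −log10 q in all 21031 peaks.

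Reads at a summit were recovered as the whole number that gives the deposited fold and Poisson −log10 p, to within 0.0001 (or a 0.00001 part of it, added), which succeeded for 21028 peaks; the recovery was tested on simulated data. Peak centres were assigned to RefSeq spans (GRCh38.p14) on chromosomes 1 to 22, X and Y with Python 3.11.15, pandas 2.3.3 and SciPy 1.17.1. The gene strand was read from the RefSeq start windows, where it was listed for 15843 coding genes. Exons were not used. Another gene was said to overlap when the peak's centre lay in its span too.

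The members and all lists were chosen with earlier results of these data known. Of the wider list, the text names the gene with the deepest summit in no other gene for each role, any gene whose only peaks lie where genes overlap (there were none), PPARA and PPARGC1A; other names were added after their values were seen, and 1 gene that the rule takes is not reported here. No test between groups was made, because the list has no values of single libraries. Alternatives were the summit or any overlap in place of the centre, peaks in no other gene, on the gene's strand, at or above the median −log10 q, or with at least 10 reads, and ranks by fold or −log10 q.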

Additional observations from a re-analysis of the deposited data

How the results depend on the processing

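All 8 genes held a peak by summit, by any overlap of 1 base, with at least 10 reads and with peaks over 2 bases wider than the narrowest only; 7 did with peaks in no other gene (all but ACADM), and 6 with peaks on the gene's strand (ACADM was lost and ACAA1 has no listed strand) or from the median −log10 q upward. That stricter threshold left 16 of the 28 member peaks and 15 of the 28 genes of the wider list. The share of member peaks on the gene's strand was 100% with peaks in no other gene. Ranked by fold, the genes lay above 56.6% (CPT1A), 74.6% (CPT2), 77.3% (ACADM), 60.4% (ACADVL), 74.3% (HADHA), 51.1% (HADHB), 82.1% (ACAA1) and 42.6% (ACAA2) of coding genes with a peak. Ranked by −log10 q, CPT2 lay above 53.6%, HADHB 34.4% and ACAA2 24.0%. ACADVL changed little, from 98.9% by reads to 97.9%, and the other 4 genes moved by less than 1.5 times. With peaks in no other gene HADHA lay above 4.32%. The cause of these shifts was not tested. Settings on width, and on strand with no other gene on it, were chosen after seeing the data. No paired analysis was possible because the list has no values of single libraries, and for that reason no replicate was left out. Summits of 6 to 13 reads, as at CPT2, HADHB and ACAA2, have intervals too wide to order these genes.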
